A study of Mus musculus with 19 samples.

Results

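The Sestrins are a family of 3 stress-response genes, Sesn1, Sesn2 and Sesn3, and their transcript levels are described here in the lungs of mice dosed with benzo(a)pyrene (BaP), a combustion product that damages DNA once it is metabolized. The genes were found by the accession that the array design gives each probe, and 5 of the 41174 probes matched, 3 for Sesn1, 1 for Sesn2 and 1 for Sesn3. All 5 passed the filter on dim probes, which leaves 3 of the 19314 genes tested. The family was picked because its members went opposite ways with dose in an earlier reading of these arrays, so the differences between doses are given as values with their errors. Where a member passed the threshold of the fit over all genes, that is stated beside the share of all genes that did, as a description and not as evidence.

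The animals were 25-week-old male transgenic mice of strain 40.6 (MutaMouse, which carries a reporter for scoring mutations), each dosed by oral gavage every day for 28 days. The groups were 5 vehicle controls that received no BaP, 5 mice on a low dose (25 mg/kg/day), 4 on a middle dose (50 mg/kg/day) and 5 on a high dose (75 mg/kg/day). Only 4 arrays of the middle dose were analysed here, although the design states 5 animals per group. A portion of the lung was collected when 3 days had passed without dosing, so the measurement follows the end of dosing and mixes all the cell types of that portion. Each mouse had its own array, on which lung RNA carried the dye Cy5 and a reference RNA pooled from 11 mouse cell lines carried Cy3. The value for a gene is the log2 ratio of lung over reference, which compares mice for one probe and does not rank one gene against another.

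Sestrins are stress-inducible proteins that hold back mTORC1, the kinase complex that drives growth when amino acids are plentiful. They do so by binding GATOR2, an activator of the mTORC1 pathway, and by favouring AMPK, the kinase that senses low energy. Sesn2 is also a leucine sensor, since leucine releases it from GATOR2, and the family supports antioxidant defence through the peroxiredoxin cycle and through the removal of KEAP1, the inhibitor of the transcription factor NRF2. DNA damage activates p53, which is known to induce Sesn1 and Sesn2. Sesn2 is also induced by NRF2 and by ATF4, the transcription factor of the amino acid and endoplasmic reticulum stress response, while Sesn1 and Sesn3 are known targets of the FOXO factors.

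The promoters of the paralogs are shown because the members moved apart and their known regulators differ. Windows of 300 bases around each annotated start, from 250 bases before it to 50 after it, came from RefSeq on build GRCm38.p6. They were searched on both strands for the p53 half-site consensus, for the NRF2 antioxidant response element core TGACNNNGC, for the ATF4 element core TGATGNAA and for the FOXO sites GTAAACA and TTGTTTAC. Capitals mark the matches. The lines hold the 250 bases before the Sesn2 start (chr4:132510457-132510706, minus strand), the 250 bases before one of the Sesn1 starts (chr10:41887189-41887438, plus strand) and 28 bases just after the other Sesn1 start (chr10:41810586-41810613, plus strand).

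Sesn2: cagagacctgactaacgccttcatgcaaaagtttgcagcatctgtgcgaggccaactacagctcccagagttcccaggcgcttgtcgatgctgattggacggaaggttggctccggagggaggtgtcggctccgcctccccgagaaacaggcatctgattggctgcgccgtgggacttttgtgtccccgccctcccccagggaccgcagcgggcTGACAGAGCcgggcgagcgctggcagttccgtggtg
Sesn1 before one start: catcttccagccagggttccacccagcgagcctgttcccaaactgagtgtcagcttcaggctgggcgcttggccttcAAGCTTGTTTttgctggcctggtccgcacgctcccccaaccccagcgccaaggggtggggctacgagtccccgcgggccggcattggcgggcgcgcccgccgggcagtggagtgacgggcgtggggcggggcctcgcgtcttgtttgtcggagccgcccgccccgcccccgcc
Sesn1 after the other start: aaccttctacTGTTTACcagccttttgg

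The Sesn2 window held 1 match to TGACNNNGC, at -36 to -28 relative to the start, a motif present in 12.4% of the 32851 promoter windows searched. It held no match to the p53 half-site, to TGATGNAA or to either FOXO site. One Sesn1 window held a p53 half-site, at -173 to -164 relative to the start, and that half-site occurs in 8.36% of windows. The consensus is its own reverse complement, so any match to it is found on both strands. The other Sesn1 window held GTAAACA on the opposite strand, 23 to 29 bases after the start, a motif in 3.65% of windows. The Sesn3 window held none of the motifs searched. The remaining motifs occurred in 3.97% of windows (TGATGNAA) and 1.23% (TTGTTTAC), and these matches describe letters only.

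Sesn2 was the member that rose with dose, and its mean ratio was higher at each dose than at the dose below. Its log2 ratios were -0.71, -0.23, -0.60, -0.91 and -0.54 in the vehicle mice. At the low dose they were 0.09, 0.00, 0.09, -0.47 and -0.29. At the middle dose they were 0.73, 0.68, 0.37 and 0.42, and at the high dose they were 1.30, 0.51, 0.51, 0.70 and 0.98. Every mouse at the middle and high doses lay above every vehicle mouse, while at the low dose 2 of the 5 mice, at -0.47 and -0.29, fell within the vehicle range.

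The group means of Sesn2 were -0.60 ± 0.25 in vehicle mice, -0.12 ± 0.25 at the low dose, 0.55 ± 0.18 at the middle dose and 0.80 ± 0.34 at the high dose (SD, n = 5, 5, 4 and 5). Against vehicle, Sesn2 was 1.40-fold higher at the low dose (log2 difference 0.48 ± 0.16, SE), 2.22-fold higher at the middle dose (1.15 ± 0.17) and 2.64-fold higher at the high dose (1.40 ± 0.16). The step between the middle and low doses was 0.67 ± 0.17 with no overlap of the mice, a separation in either direction that 1.72% of all genes tested showed. The step between the high and middle doses was 0.25 ± 0.17 with overlapping mice. That step was 0.41 ± 0.14 with slide as a fixed block, 0.37 ± 0.14 with scan day as one and 0.12 without high dose mouse 16, so its size depended on the fit and on that mouse. Per step of 25 mg/kg/day the ratio was higher by 0.48 ± 0.05 over all mice and by 0.46 ± 0.08 over the treated mice alone. Since lung tissue was measured in bulk, more cells that express a gene and more RNA per cell cannot be told apart, for this gene or the others.

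Most of the change in the Sesn2 ratio lay in the lung channel. Spot brightness in the lung channel was 706.5 to 1187 units at the high dose and 146 to 308 units in vehicle mice, with every spot well above background. In the reference channel, which holds the same RNA on every array, it was 548 to 611 units at the high dose and 574.5 to 831 units in vehicle mice. After normalization the mean of the lung channel at the high dose was 1.17 above vehicle on the log2 scale, and that of the reference channel was 0.17 below it, at -0.17.

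Sesn1 went the opposite way on the probe that represents it, the one with the brightest lung signal. Its log2 ratios were 0.74, 0.62, 0.84, 0.96 and 1.08 in the vehicle mice and 0.54, 0.74, 0.67, 0.88 and 0.87 at the low dose. At the middle dose they were 0.30, 0.84, 0.68 and 0.72, and at the high dose they were 0.35, 0.49, 0.40, 0.41 and 0.44. The mice at the high dose all lay below the lowest vehicle mouse and below the lowest mouse at the low dose, and 2.23% of all genes separated the highest from the lowest dose in either direction. The mice at the low and middle doses overlapped the vehicle mice, and 1 mouse at the middle dose, at 0.30, stood below the rest of its group.

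The group means of Sesn1 were 0.85 ± 0.18 in vehicle mice, 0.74 ± 0.14 at the low dose, 0.64 ± 0.23 at the middle dose and 0.42 ± 0.05 at the high dose (SD, n = 5, 5, 4 and 5). The log2 differences from vehicle were -0.11 ± 0.10, -0.21 ± 0.11 and -0.43 ± 0.10 (SE) at the low, middle and high doses, which at the highest dose is a ratio 0.743 times that of vehicle. The mice of neighbouring doses overlapped, and the steps were -0.10 ± 0.11 between the middle and low doses and -0.22 ± 0.11 between the high and middle doses. Without the arrays that the Feature Extraction quality report marked for evaluation, these steps were 0.007 ± 0.103 and -0.335 ± 0.108. Middle dose mouse 12, the lowest of its group, was on 1 of those arrays, so the steps depended on the arrays included. The slope was -0.14 ± 0.03 per 25 mg/kg/day over all mice. As for Sesn2, the lung channel held the change, with -0.38 at the high dose against vehicle, where the reference channel had 0.05.

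The lower Sesn1 ratio at the high dose rests on that probe, and it was not seen with every scaling of the arrays. With the lung channel alone, which was scaled without loess, the difference was -0.38 ± 0.09 (SE). With each array centred on its median in place of loess, the difference was 0.25 ± 0.36, in a setting where the median of all genes was 0.35 above vehicle, so Sesn1 stood below that median but not below vehicle. Under the other 31 alternatives the difference was negative, from -0.49 to -0.13, and Sesn2 was higher than vehicle under all 32, from 1.17 to 1.95.

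**Figure D1:**
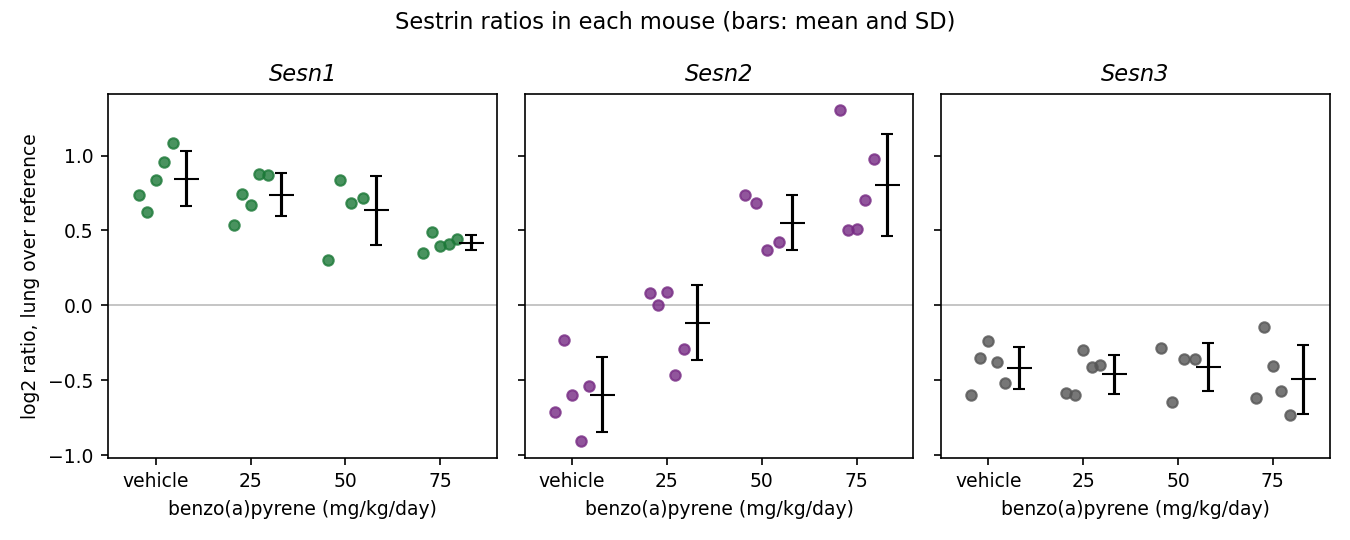
Log2 ratio of lung over reference for each Sestrin in each mouse (points) by daily dose of BaP, with the group mean and SD as bars beside the points. Sesn2 averages 0.80 at the high dose and -0.60 in vehicle mice, Sesn1 averages 0.42 and 0.85, and Sesn3 groups overlap at every dose.

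The other Sesn1 probes did not show the difference. All 3 probes are listed under the same RefSeq transcript, and the array files give neither their sequence nor their place in it. The probe A_52_P53596 was well above background in the lung on all arrays but much dimmer, at 80.5 to 123 units at the high dose and 27 to 88 units in vehicle mice. The probe used had 1018 to 2226 units at the high dose and 772 to 2288.5 units in vehicle mice. Ratios of A_52_P53596 averaged 0.03 ± 0.20 at the high dose and 0.05 ± 0.21 in vehicle mice (SD, n = 5 each), a difference of -0.02 ± 0.15 (SE). Its differences at the low and middle doses were 0.12 ± 0.15 and 0.15 ± 0.16, with overlapping mice at each dose.

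The third probe, A_51_P266644, was near background. Its lung spot was well above background on 1 of 5, 2 of 5, 1 of 4 and 4 of 5 arrays in the vehicle, low, middle and high dose groups. Its ratios averaged 0.04 ± 0.18 at the high dose and -0.04 ± 0.23 in vehicle mice, a difference of 0.08 ± 0.11. With the 3 probes averaged, the Sesn1 difference at the high dose was -0.13 ± 0.09. The normexp offset of 50 units compresses the ratios of spots as dim as these, so the folds of these probes are understated.

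**Figure D2:**
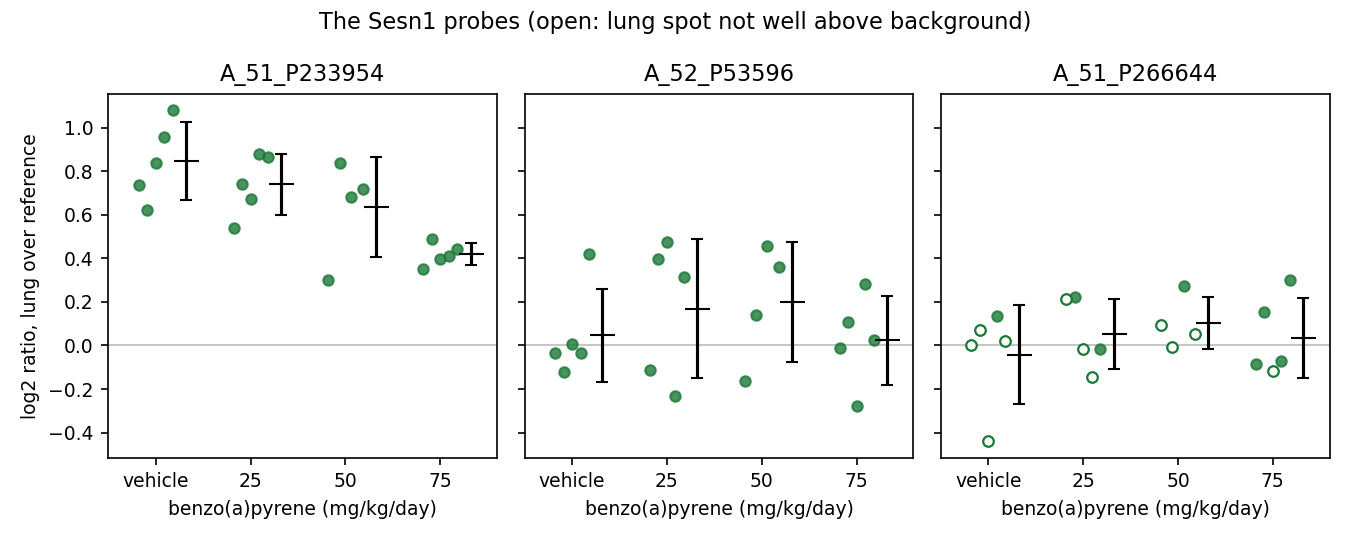
Log2 ratio of lung over reference in each mouse for the 3 Sesn1 probes by daily dose of BaP, with group means and SD as bars. Open points mark lung spots not well above background. The mice at the high dose lie apart from vehicle mice on the probe at the left (means 0.42 and 0.85) and overlap them on the others.

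Sesn3 stayed close to its vehicle level at every dose. Its log2 ratios were -0.60, -0.35, -0.24, -0.38 and -0.52 in the vehicle mice and -0.59, -0.60, -0.30, -0.41 and -0.40 at the low dose. At the middle dose they were -0.29, -0.64, -0.36 and -0.36, and at the high dose they were -0.62, -0.14, -0.41, -0.57 and -0.73. The groups overlapped at every dose, and the widest spread was among the mice at the high dose.

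The Sesn3 differences from vehicle were -0.04 ± 0.11, 0.01 ± 0.11 and -0.08 ± 0.11 (SE) at the low, middle and high doses. The ratio at the high dose was 0.948 times that of vehicle, with a 95% interval of 0.812 to 1.11. The probe was dim, at 24.5 to 69 units in the lung at the high dose and 7 to 66 units in vehicle mice. Its lung spot was well above background on 4 of 5, 4 of 5, 3 of 4 and 4 of 5 arrays in the vehicle, low, middle and high dose groups. A change of a given size in Sesn3 would therefore appear smaller on this scale than one in Sesn2, and the interval describes the compressed ratio.

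Set against all genes tested, 0 of the 3 members passed an adjusted p of 0.05 in limma at the low dose, where 0.0518% of genes did. Sesn2 passed at the middle dose, where 1.08% of genes did, and Sesn1 and Sesn2 passed at the high dose, where 4.15% did. Groups that did not overlap with vehicle were found for Sesn2 at the middle dose, as for 4.5% of genes, and for Sesn1 and Sesn2 at the high dose, as for 4.71% of genes. The family was picked on these contrasts, so the counts describe the choice and nothing is read from them. The Sesn1 call at the high dose was lost without mouse 16 (difference -0.41) or without mouse 18 (-0.42), with little change in its size.

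The arrays lay on 6 slides, and 4 slides held both a vehicle mouse and a mouse at the high dose. Within those slides Sesn2 was higher at the high dose on 4 of 4, by 0.93 to 1.69, and Sesn1 was lower on 4 of 4, with differences of -0.56 to -0.21. At the middle dose Sesn2 was higher on 3 of 3 slides, by 0.60 to 1.45, and Sesn1 was lower on 2 of 3. At the low dose Sesn2 was higher on 4 of 4 slides, by 0.23 to 0.80, while Sesn1 was lower on 2 of 4. Sesn3 had differences of both signs at each dose, within -0.25 and 0.31.

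**Figure D3:**
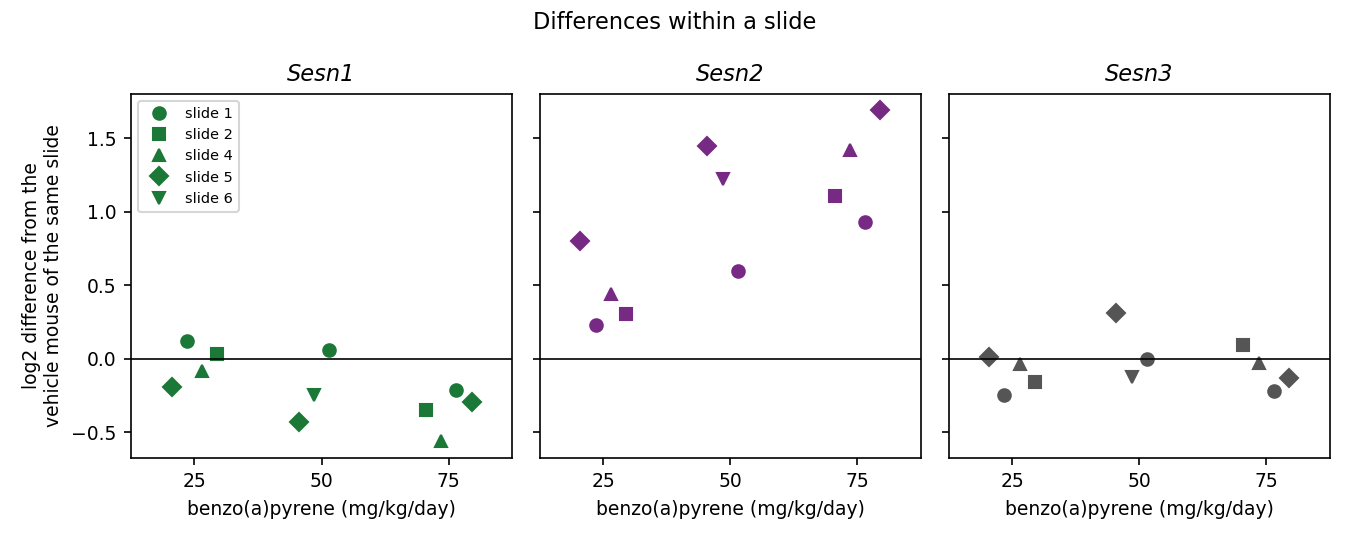
Log2 difference between a treated mouse and the vehicle mouse on the same slide, by daily dose of BaP, for each Sestrin. Each point is 1 treated mouse and each marker shape 1 slide. All Sesn2 points lie above 0, Sesn1 points at the high dose lie between -0.56 and -0.21, and Sesn3 points lie on both sides of 0.

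The distance between paralogs on the same array was also followed, since a shift of a whole array cancels in it. The gap of Sesn2 minus Sesn1 was 0.59 ± 0.24 higher than in vehicle mice at the low dose, 1.36 ± 0.24 at the middle dose and 1.83 ± 0.24 at the high dose (log2, SE). The gaps of treated and vehicle mice did not overlap at the middle or high dose. Since the family was picked because its members went opposite ways, this gap is a description and no support. It uses only the brightest Sesn1 probe. Under every scaling tried the difference at the high dose lay between 1.55 and 1.98, and with median centring it was 1.70. The gap of Sesn2 minus Sesn3 changed by 1.48 ± 0.27 at the high dose and that of Sesn1 minus Sesn3 by -0.35 ± 0.14, and for Sesn1 minus Sesn3 treated and vehicle mice overlapped. With median centring the Sesn1 minus Sesn3 change was 0.09 ± 0.27, so the separation of Sesn1 from Sesn3 depended on the scaling. The change in Sesn2 minus Sesn3 lay between 1.09 and 1.79 over the scalings tried.

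Within a dose group the paralogs were compared on the deviation of each mouse from its group mean. This takes out the group means, on which the family was picked, but the arrays and their normalization are the same. Mice with more Sesn2 than their group tended to have less Sesn1, with a Pearson r of -0.49 over 19 mice (permutation within groups, 100000 resamples, two-sided p = 0.019, adjusted over 3 pairs 0.057). Spearman's rho was -0.57 (permutation p = 0.016, adjusted 0.048), so the pair passed 0.05 after adjustment by rank and not by Pearson r. Without the mice farthest from the median on Sesn1, mice 5 and 12, r was -0.56, or -0.61 with group means refitted to the remaining mice, and with slide means removed from all mice it was -0.65. Leaving out each mouse in turn gave r of -0.59 to -0.39, and the Pearson test passed the threshold after adjustment in 4 of those 19 cases. With median centring in place of loess the sign turned and r was 0.77, so this relation depended on the normalization. All values of a mouse come from the same array.

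For Sesn1 and Sesn3 the deviations had r = -0.10 (permutation p = 0.66) and rho = -0.19, and with slide means removed r was -0.52. For Sesn2 and Sesn3 they had r = -0.38 (permutation p = 0.18) and rho = -0.21, and with slide means removed r was -0.01. Neither pair passed the threshold, and both values of r moved with the removal of slide means. With median centring, Sesn1 and Sesn3 had r = 0.73.

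**Figure D4:**
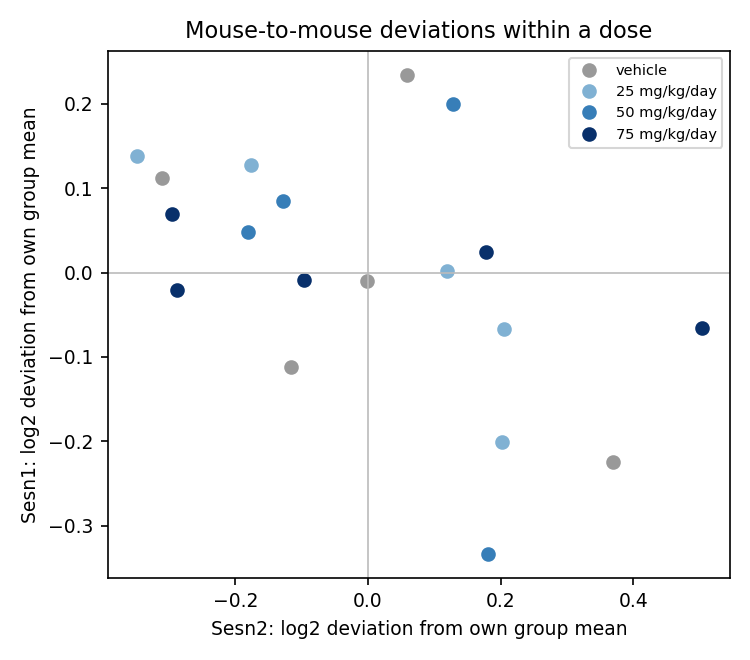
Deviation of each mouse from the mean of its own dose group for Sesn2 (horizontal) and Sesn1 (vertical), in log2 units, with 1 point per mouse and the shade giving the dose. The points tend to run from upper left to lower right, with r = -0.49 over 19 mice (permutation within groups, adjusted p = 0.057). With median centring in place of loess the sign of r turned.

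The genes whose ratios over all 19 arrays were most like those of each Sestrin were listed among 12314 genes with a symbol. Arrays share their dose groups, slides and reference RNA, so these values are descriptions. For Sesn2 they were Phlda3, an inhibitor of Akt signalling induced by p53 (r = 0.94), Galnt1, which starts mucin-type O-glycosylation (0.93), Rps27l, a ribosomal protein paralog induced by p53 (0.92), Cdkn1a, the cell cycle inhibitor p21 (0.92), and Inka2, an inhibitor of the kinase PAK4 (0.92). With group means removed the same genes had r of 0.37 to 0.60 with Sesn2.

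For Sesn1 the most alike genes were Tcp11l2 (r = 0.90), Pde2a, a phosphodiesterase of cyclic nucleotides (0.90), Akna, which organizes microtubules at the centrosome (0.87), Prodh, the first enzyme of proline breakdown (0.87), and Akr1b7, an aldo-keto reductase (0.83). Here r was 0.79 to 0.91 with group means removed. The genes were picked for the highest r over these same arrays, so nothing further is read from that range. For Sesn3 they were Utp15, a factor of ribosomal RNA processing (0.78), Stbd1, which binds glycogen (0.75), Fosl2, a subunit of the AP-1 transcription factor (0.73), Nmt2, which attaches myristate to proteins (0.70), and Fam118a (0.69).

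The pathways in which Sestrins act were followed as lists. Of the genes of mTORC1 amino acid sensing, which include the GATOR complexes and the Rag GTPases, 0 of 35 tested passed the threshold in limma at the high dose, and 5 had an unadjusted p under it. Their median log2 difference was 0.00, against -0.01 over all genes. Of the AMPK subunits and upstream kinases, 0 of 11 passed (1 at an unadjusted p), with a median of 0.04. Of the peroxiredoxin cycle and KEAP1 genes, 1 of 17 rose and 0 fell. The one that rose was Srxn1, sulfiredoxin, which reduces overoxidized peroxiredoxins, with a log2 difference of 0.43 ± 0.11 (adjusted p = 0.033), and the median of the list was -0.11. The list had 0 calls without vehicle mouse 2 or without high dose mouse 16 or 18. Against the 4.15% of all genes called at this dose, counts this small in lists of this size say little about the partners. Over the settings and left-out mice the calls ranged from 0 to 3 for mTORC1 sensing, 0 to 1 for AMPK and 0 to 3 for the peroxiredoxin list.

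Among the regulators' targets, those of p53 are given first. Of 31 tested, 6 rose at the low dose, 11 at the middle dose and 16 at the high dose, and 0 fell, with medians of 0.21, 0.35 and 0.48. The shares of all genes called, in either direction, were 0.0518%, 1.08% and 4.15% at these doses. This list was chosen with earlier results of these data known, so its counts are a description. The largest differences at the high dose were those of Cdkn1a, at 3.28 ± 0.23, Gdf15, a stress-induced secreted factor, at 3.16 ± 0.20, Ccng1, cyclin G1, at 2.30 ± 0.19, and Phlda3, at 2.11 ± 0.17. The adjusted p-values of these 4 genes in limma were at most 6.47e-07. Sesn2, at 1.40, lay below these 4 genes, which were picked for their size, and above the list median of 0.48. Sesn1, also known as a p53 target, had a negative difference on the probe used. Of the 31 targets, 27 were above vehicle at the high dose. Over the 19 arrays Sesn2 had r = 0.92 with the mean of the p53 targets and Sesn1 r = -0.77. With group means removed these were 0.32 and -0.40.

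Targets of the other regulators of Sesn2 were followed at the high dose, where 4.15% of all genes were called. These lists too were chosen with earlier results of these data known, so the regulators are not ranked by their counts. Of 30 ATF4 targets, 1 rose at the high dose and 2 fell, with a median of -0.10. Ppp1r15a, which restores translation after stress, rose by 0.54 ± 0.12, while Phgdh, the first enzyme of serine synthesis, had -0.70 ± 0.19 and Trib3, a pseudokinase of the ATF4 response, had -0.45 ± 0.10. Of 20 NRF2 targets, 2 rose and 0 fell, with a median of 0.08. Without vehicle mouse 1 or 2, or high dose mouse 16 or 18, 1 was called, and without high dose mouse 16 or 18 the ATF4 targets also had 1 call. The NRF2 targets that rose were Ephx1, a hydrolase of BaP epoxides, at 1.54 ± 0.13, and Srxn1, which the peroxiredoxin list also holds.

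Of 19 FOXO factors and targets, 1 rose and 2 fell at the high dose, with a median of -0.24. Tnfsf10, the death ligand TRAIL, had 0.77 ± 0.16, Txnip, the thioredoxin-binding protein, had -0.51 ± 0.13 and Cited2, a regulator of transcription, had -0.37 ± 0.10. The mean of this list had r = 0.82 with Sesn1 over the 19 arrays and 0.79 with group means removed, against 0.08 with Sesn3. Vehicle mouse 5, which had the highest Sesn1 ratio, also had the highest mean of this list, at 0.32 above the vehicle mean. The same mouse had the highest mean of the skeletal muscle markers, at 4.27 above the vehicle mean. The part of muscle in the r of this list with Sesn1 was not tested. With group means removed, other lists had r with Sesn1 too, at 0.52 for the peroxiredoxin list and -0.52 for mTORC1 sensing. Over each setting and each left-out mouse, the number of p53 targets called at the high dose lay between 14 and 21, that of ATF4 targets between 1 and 9, that of NRF2 targets between 1 and 4 and that of FOXO genes between 1 and 7. The highest count for ATF4 targets came with slide as a random block. It was 1 for FOXO genes without vehicle mouse 5 or without high dose mouse 16, 17 or 18.

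Markers of lung cells were present as the labels imply. All 10 tested markers of alveolar type 2 cells, 6 of type 1 cells, 7 of club cells and 10 of capillary endothelium were well above background on all 19 arrays. At the high dose 2 of the 10 endothelium markers fell past the threshold in limma and 0 rose. Their differences ran from -1.42 to 0.47, with 7 above vehicle. Of the type 2 markers 0 passed and 1 was above vehicle, with a median of -0.15. Of the type 1 markers 0 passed. Of 8 alveolar macrophage markers 0 passed, with differences of -1.376 to 1.405. Markers of muscle and fat varied between mice. The mean of 10 tested skeletal muscle markers, relative to the vehicle mean, lay between -1.83 and -0.98 at the high dose and between -1.53 and 4.27 in vehicle mice, where mouse 5 had the highest value and also the highest Sesn1 ratio. All 10 had a lower mean at the high dose than in vehicle mice, 0 of them passed the threshold in limma (4 did at an unadjusted p), and 3 were well above background on all 19 arrays. Without vehicle mouse 5 the Sesn1 difference at the high dose was -0.37. At the low dose the muscle marker mean lay between -1.75 and -1.56, and the Sesn1 difference was -0.11. Of 9 cardiac muscle markers, 6 fat cell markers, 6 smooth muscle markers and 7 club cell markers, 0 were above vehicle at the high dose, with medians of -1.34, -1.12, -0.46 and -0.30. Among them 1 smooth muscle marker, Acta2 (-0.62), and 1 club cell marker, Cbr2 (-0.53), passed the threshold. These 2 genes were named after their values were seen. The ranges of the list means were -2.64 to 0.98 at the high dose and -0.77 to 1.61 in vehicle mice for cardiac muscle, and -2.08 to 1.05 and -1.16 to 1.54 for fat. They were -0.77 to -0.19 and -0.63 to 0.48 for smooth muscle, and -0.83 to 0.35 and -0.48 to 0.34 for club cells. With Sesn1 over the 19 arrays the means had r of 0.50 for skeletal muscle, 0.45 for cardiac muscle, 0.42 for fat, 0.47 for smooth muscle and 0.26 for club cells. With group means removed these were 0.445, 0.40, 0.48, 0.40 and 0.18, in the same order. The part of these tissues in the Sestrin values was not tested.

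The mean of 8 T cell markers lay between -0.26 and 0.01 at the high dose and between -0.10 and 0.13 in vehicle mice. Over the 19 arrays it had r = 0.61 with Sesn1 and -0.68 with Sesn2, and 5 of the 8 were well above background on all arrays. Of these markers 0 of 8 passed the threshold in limma (3 did at an unadjusted p), and their part in the Sestrin values was not tested. Of 9 B cell markers, 2 fell past the threshold at the high dose, Cd79b (-0.62) and Blnk (-0.58), named after their values were seen. The B cell mean lay between -0.41 and -0.03 at the high dose and between -0.26 and 0.26 in vehicle mice, with r = 0.56 with Sesn1 and -0.57 with Sesn2 over the 19 arrays. Its part was not tested either, and 6 of the 9 were well above background on all arrays.

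**Figure D5:**
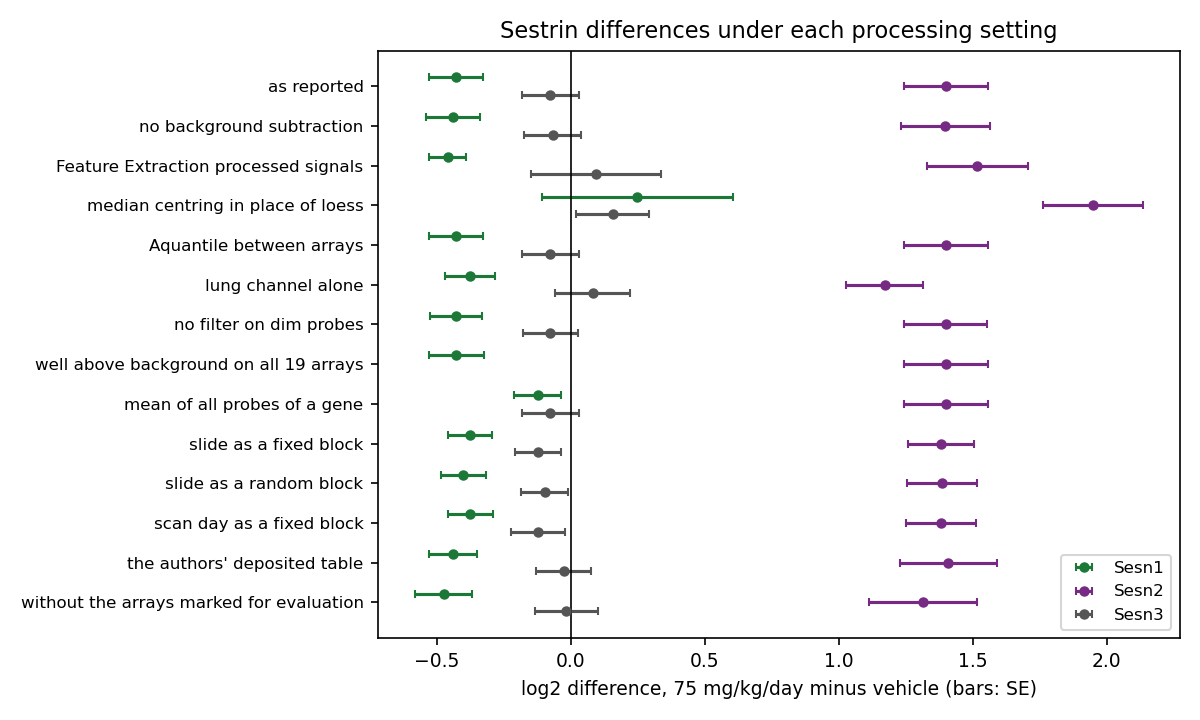
Log2 difference between the high dose (75 mg/kg/day) and vehicle for each Sestrin (points, with SE) under each processing setting, with the reported setting at the top. Sesn2 lies between 1.17 and 1.95 under every setting drawn, Sesn1 lies below 0 except with median centring (0.25), and Sesn3 lies on both sides of 0.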

How the data were processed

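Per the file headers, the deposited spot intensity values (45018 on each array) came from Feature Extraction 10.7.3.1. The median spot and local background intensities of both channels were used. The table deposited by the authors holds log2 ratios of lung over reference. Its columns had r of 0.995 to 0.998 with ratios after loess without background subtraction, its column medians lay at -0.053 to -0.033, and how it was centred is not stated in these sources. Mice carried numbers of their own and were not paired, and dyes were not swapped.

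Intensities went through normexp (offset 50) and within-array loess with control spots at weight 0, in limma 3.58.1 (R 4.3.3). Outlier spots (0.29%) were left out, and 0 spots were saturated. Probes were named by RefSeq accession without version (56.75% of 41174). The 24499 probes well above background in the lung on at least 4 arrays were kept, and the probe with the brightest mean lung signal stood for its gene, which left 19314 genes. The lung channel had 19777 to 27279 spots well above background on an array, and this together with the number of arrays limits the precision. All 19 arrays were fitted with a mean per group by lmFit and eBayes, and p-values were adjusted by Benjamini-Hochberg over all genes, with a threshold of 0.05. Feature Extraction's quality report marked 4 arrays for evaluation, and slides and scan days (6 and 5) were tried as blocks. Alternatives changed the background correction, the scaling, the filter, the probe rule, the blocks and the mice included. The p-values set differences between groups against the spread between these mice, taken as independent. The labels do not say whether mice shared a cage or litter, and the fit does not allow for it.

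The named genes were the Sestrins, the 5 genes most correlated with each, and up to 4 called genes of each list with the largest differences at the high dose (75 mg/kg/day). The members and lists were chosen with earlier results of these data known.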

Additional observations from a re-analysis of the deposited data

Results flagged for a closer look

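Of 20 groups of mice checked for single values far from the rest (5 probes in 4 groups), 2 held one, and chance alone marks about 1 in 20 such groups. On the Sesn1 probe A_52_P53596, vehicle mouse 5 stood above the other vehicle mice at a log2 ratio of 0.42. That mouse also had the highest ratio of the group on the Sesn1 probe used, at 1.08, and the highest skeletal muscle marker mean. On the dim Sesn1 probe A_51_P266644, vehicle mouse 3 stood below the others at -0.44, with a lung spot that was not well above background. No value of Sesn2 or Sesn3 was marked in any group.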

How the results depend on the processing

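Over the 32 alternatives Sesn2 was above vehicle by 0.91 to 1.37 at the middle dose and 1.17 to 1.95 at the high dose, and Sesn1 at the high dose was past the threshold under 28 and reversed under 1. The genes were chosen on these contrasts, so such counts are no support for them. With median centring instead of loess, the all-gene median shifted by 0.15, 0.14 and 0.35 at the low, middle and high doses. The differences from vehicle were then 0.19, 0.071 and 0.25 for Sesn1, and 1.95 for Sesn2 and 0.16 for Sesn3 at the high dose. The high dose minus the middle and low doses gave 0.18 and 0.062 for Sesn1 and 0.58 and 1.24 for Sesn2. With the probes of Sesn1 averaged, its differences were 0.029 at the middle dose, -0.13 at the high dose and -0.16 between the high and low doses. Feature Extraction's processed signals gave Sesn3 0.094 at the high dose, -0.13 between the middle and low and 0.18 between the high and middle doses. Sesn3 had no value where every array had to be well above background.

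The genes called at the low, middle and high doses numbered 10, 209 and 802. They numbered 0 and 9 at the lower doses with median centring, 36 and 1449 at the low and high doses with processed signals, and 102 at the middle dose with the lung channel alone. They numbered 407 and 1769 at the middle and high doses with slide as a fixed block, 40, 619 and 1848 with slide as a random block, 19, 337 and 1495 with scan day, and 3 and 95 at the lower doses without the arrays marked for evaluation. Leaving out each mouse gave 3 to 13, 75 to 214 and 449 to 978. The count at the low dose was 3 without mouse 7 or 8, 4 without vehicle mouse 4 and 5 without vehicle mouse 2 or 3. At the middle dose it was 75 to 129 without mouse 12, 13 or 15, and 98 and 121 without vehicle mouse 2 or 4. At the high dose it was 449 and 451 without mouse 18 or 16, and 529 without vehicle mouse 2. The cause of these changes was not tested.

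The deviation r of Sesn1 and Sesn2 was past the adjusted threshold with median centring (0.77), the lung channel (-0.64) and the authors' table (-0.61). It was also past it without the 2 farthest mice with group means refitted (-0.61), and ranged from -0.59 to -0.39 without each mouse. With slide means removed it was -0.65. The permutation did not allow for the slide means fitted there, so no threshold is read for that value. The deviation r of Sesn1 and Sesn3 was 0.73 with median centring.

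No paired analysis was possible because the groups share no mouse numbers, and slide was used as the block and for the differences within slides. Dim signal limits Sesn3 and the lesser Sesn1 probes.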
